A study of Caenorhabditis elegans with 12 samples.

Results

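Solute carriers (SLC proteins) and proteins of the major facilitator superfamily (MFS) are membrane proteins that move ions, metals, vitamins, amino acids and other small molecules across cell and organelle membranes. The genes described here are all those on the array whose name begins with slc or with mfsd-, with names brought up to date by gene identifier from the WBcel235 annotation of Caenorhabditis elegans. There were 29 such genes on 32 probes, 19 with an slc or slcr name and 10 with an mfsd name, out of 8187 named genes. In that annotation 49 genes carry such a name, and the other 20, without a named probe, were not analysed here. Membership rests on the name alone, but this group of names was picked for description with earlier results of these data known. Where a gene had several probes, the one with values on most arrays was used, and every chosen probe had a value on all 12 arrays.

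The worms were hermaphrodites of the wild-type strain N2. They were grown from the egg at 20 °C and then held for 48 h at 25 °C on NGM alone (control) or on NGM containing 10 mM lithium chloride (LiCl). Each of the 6 control and 6 LiCl samples came from its own culture and was a pool of 50 whole worms, whose age at harvest is not given in the sources used here. RNA of each sample was amplified, labelled with Cy5 and hybridised to its own 2-colour array together with Cy3-labelled RNA from a mixed-stage N2 pool, which served as the reference on all 12 arrays and was itself not replicated. These dyes are those that each sample's own labels give for its 2 channels. The shared labelling protocol says that controls received Cy3 and experimentals Cy5, and controls is read there as the reference RNA, since the labels of the untreated worms give Cy5.

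The values are the authors' processed log ratios. Their log base and scale factor are not stated, and the interquartile range was 1.332 to 1.344 on all 12 arrays, so differences are given in deposited log ratio units and not as folds. Sample over reference is the likely direction of the ratio, from the dyes in the labels; if it ran the other way, each rise below would be a fall. Array medians lay between 0.018 and 0.044, and between 16 and 150 of the 22370 probes lacked a value on an array. Of 39 cell type markers in 8 lists, 7 had a named probe, and none of these belonged to intestine, body wall muscle, neuron or hypodermis. These tissues of the whole worm could therefore not be followed beside the transporters.

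Many transporter families are named after their human members, and the roles given here are those of the human proteins unless stated. SLC46 proteins include the proton-coupled carrier that takes up folate in the intestine. Most SLC30 proteins move zinc out of the cytosol into organelles or out of the cell, and SLC25 proteins carry metabolites across the inner mitochondrial membrane. SLC9B proteins include an exchanger of sodium or lithium for protons. MFSD8, also called CLN7, is a lysosomal membrane protein whose loss causes a neuronal storage disease.

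After LiCl, slcr-46.2, mfsd-8.3 and mfsd-8.2 rose, and mfsd-12, slc-30A5, slc-30A9 and slc-25A26 fell. These 7 of 29 genes (24.1%) passed the test, limma's moderated test with Benjamini-Hochberg adjustment over all 22370 probes and a threshold of 0.05. Over all probes 8.0% passed, 4.5% as higher and 3.5% as lower. The other 22 genes did not pass. Without adjustment 13 of 29 genes had a p under 0.05, against 22.8% of all probes. The size of the difference had a median of 0.37 over the 29 genes and of 0.32 over all probes, and the signed median was -0.19 for the 29 genes and 0.019 for all probes. In extracts of whole worms, fewer cells of a type and less RNA per cell cannot be told apart.

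**Figure D1:**
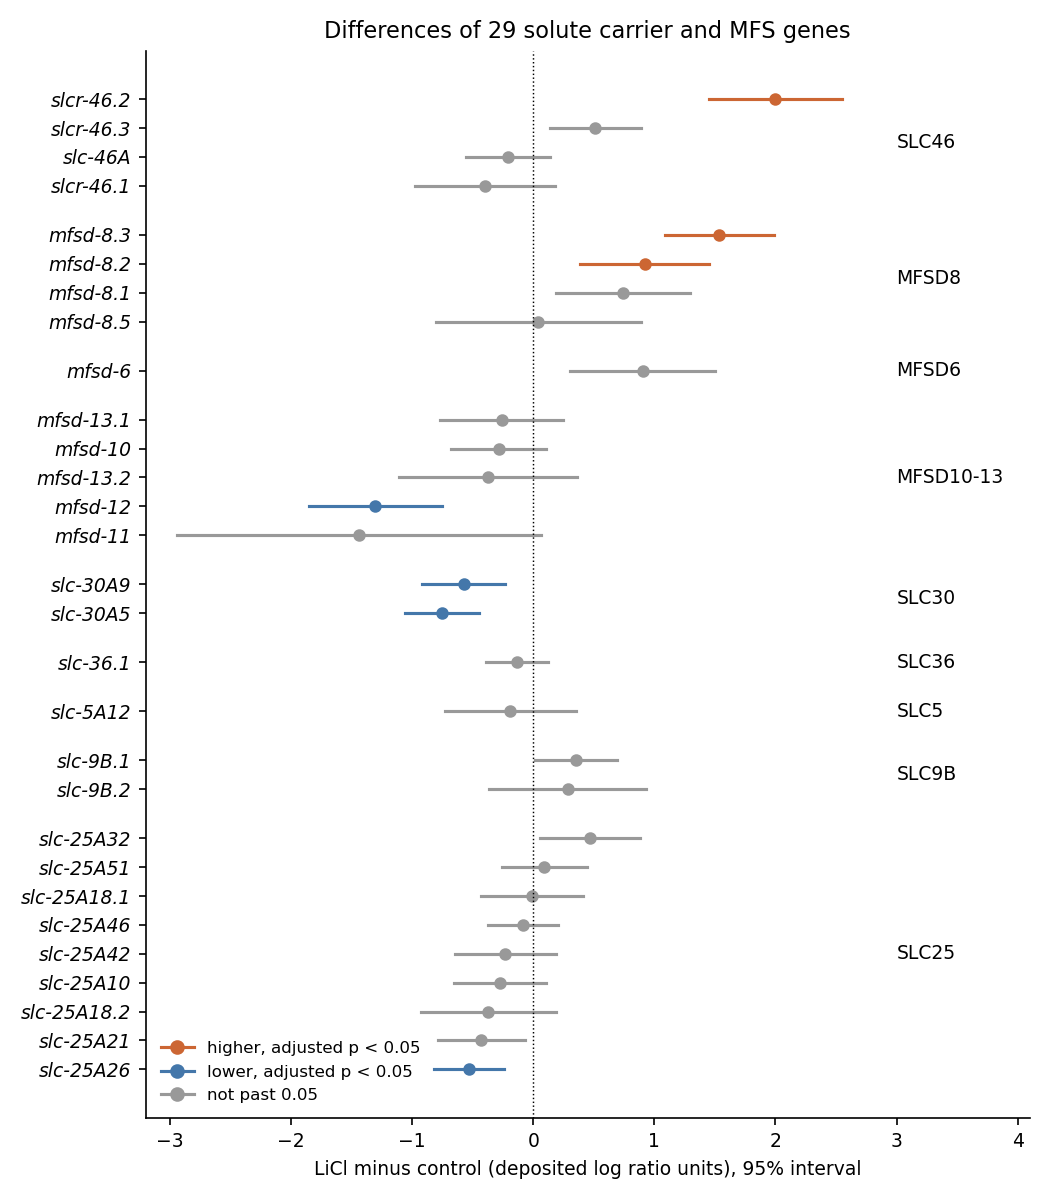
Differences between LiCl and control worms (x axis, deposited log ratio units) for the 29 genes, ordered by the family in their name. Points are limma estimates and bars 95% intervals from 6 control and 6 LiCl arrays; 3 genes lie to the right and 4 to the left of 0 at an adjusted p under 0.05, with slcr-46.2 farthest right at 2.00.

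The largest rise was in slcr-46.2 (Y43F8A.5), a gene named as related to the SLC46 family. Its log ratio was 0.17, 0.87 and 1.47 (lowest, median and highest) on the control arrays and 2.37, 2.83 and 3.43 on the LiCl arrays. The groups were apart on all arrays, with 0.91 between the highest control and the lowest LiCl array. The difference was 2.00 ± 0.25 (SE, n = 6 per group, 95% interval 1.45 to 2.55, adjusted p = 0.00057), and it stayed past the threshold whichever single array was left out.

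The other 3 SLC46-named genes (slc-46A, slcr-46.1 and slcr-46.3) did not pass. slcr-46.3 (F40F9.5) had log ratios of -1.54, -1.06 and -0.85 in control and of -0.82, -0.69 and -0.05 in LiCl. These groups did not overlap, but by only 0.027, and the difference of 0.51 ± 0.17 (SE) had an adjusted p of 0.0932. slcr-46.1 (C46C11.2) differed by -0.40 (95% interval -0.98 to 0.18), with LiCl replicate 2 lowest at -2.26. slc-46A (Y4C6B.5) differed by -0.21 (95% interval -0.55 to 0.14), and the groups overlapped.

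The responses of these 4 genes to LiCl were compared directly. For each pair of genes the difference of their log ratios was taken on every array and compared between the groups by a two-sided exact permutation test over all 924 assignments, adjusted over the 16 pairs of like-named genes that were tested in all. These pair tests were added after the data were seen. Their adjustment covers the like-named pairs only, whereas the limma test was adjusted over all probes, so the thresholds are not equivalent. In 5 of the 6 pairs of SLC46-named genes the responses differed. The pairs share genes and are not independent, and those with slcr-46.2 largely restate its rise described above. slcr-46.2 responded more than slc-46A by 2.21 ± 0.25 (SE), more than slcr-46.1 by 2.40 ± 0.44 (SE) and more than slcr-46.3 by 1.49 ± 0.25 (SE), each with an adjusted p of 0.00866 in the exact permutation test and with no overlap between the groups. The LiCl difference of slcr-46.3 was in turn above that of slc-46A by 0.72 (exact permutation test, adjusted p = 0.00866). It was above that of slcr-46.1 by 0.91 (exact permutation test, adjusted p = 0.0173). None of these genes passed the limma test by itself. Between slc-46A and slcr-46.1 the responses differed by 0.19, with an interval of -0.57 to 0.95 (exact permutation test, adjusted p = 0.714). The smallest unadjusted p this test can give is 0.00216, and different probes may compress a change to different degrees.

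The MFSD8-named genes stood next. In mfsd-8.3 (Y53G8AR.7) the control arrays read -1.26, -0.95 and -0.57 (lowest, median and highest) and the LiCl arrays -0.02, 0.71 and 1.04. All control values were thus below 0, whereas 5 of 6 LiCl values were above it. The rise was 1.54 ± 0.21 (SE, n = 6 per group, 95% interval 1.09 to 1.99, adjusted p = 0.000867) and remained past the threshold without any single array.

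mfsd-8.2 (W05E10.1) read 0.23, 0.74 and 0.94 in control and 0.96, 1.44 and 2.56 in LiCl. The groups did not overlap, although only 0.017 separated the highest control from the lowest LiCl array. The rise of 0.92 ± 0.25 (SE, 95% interval 0.39 to 1.45) lay close to the threshold (adjusted p = 0.0380). It lost the call when any 1 of the 12 arrays other than LiCl replicates 1 and 6 was left out, with adjusted p-values from 0.0522 to 0.0803.

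For mfsd-8.1 (ZK550.2) the control arrays gave -0.61, 0.51 and 0.91 and the LiCl arrays 0.64, 1.18 and 1.66. The groups overlapped, with 4 of 6 LiCl arrays above all controls, and the difference of 0.74 ± 0.26 (SE) did not pass (adjusted p = 0.102). mfsd-8.5 (F27D9.2) differed by 0.04 (95% interval -0.80 to 0.89). Its value was -0.20 on LiCl replicate 2 and between -2.95 and -1.81 on the other LiCl arrays, and without that array the difference was -0.31.

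All 4 differences of the MFSD8-named genes were above 0, from 0.04 to 1.54, and 2 of the 4 passed. Their responses were unequal in 2 of 6 pairs, which share mfsd-8.3 and so are not independent. mfsd-8.3 responded more than mfsd-8.2 by 0.61 ± 0.18 (SE; exact permutation test, adjusted p = 0.0297) and more than mfsd-8.5 by 1.49 ± 0.31 (SE; exact permutation test, adjusted p = 0.0173). The other 4 pairs did not pass, among them mfsd-8.1 and mfsd-8.3, whose responses differed by -0.80 with an interval of -1.58 to -0.01 (exact permutation test, adjusted p = 0.0962).

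**Figure D2:**
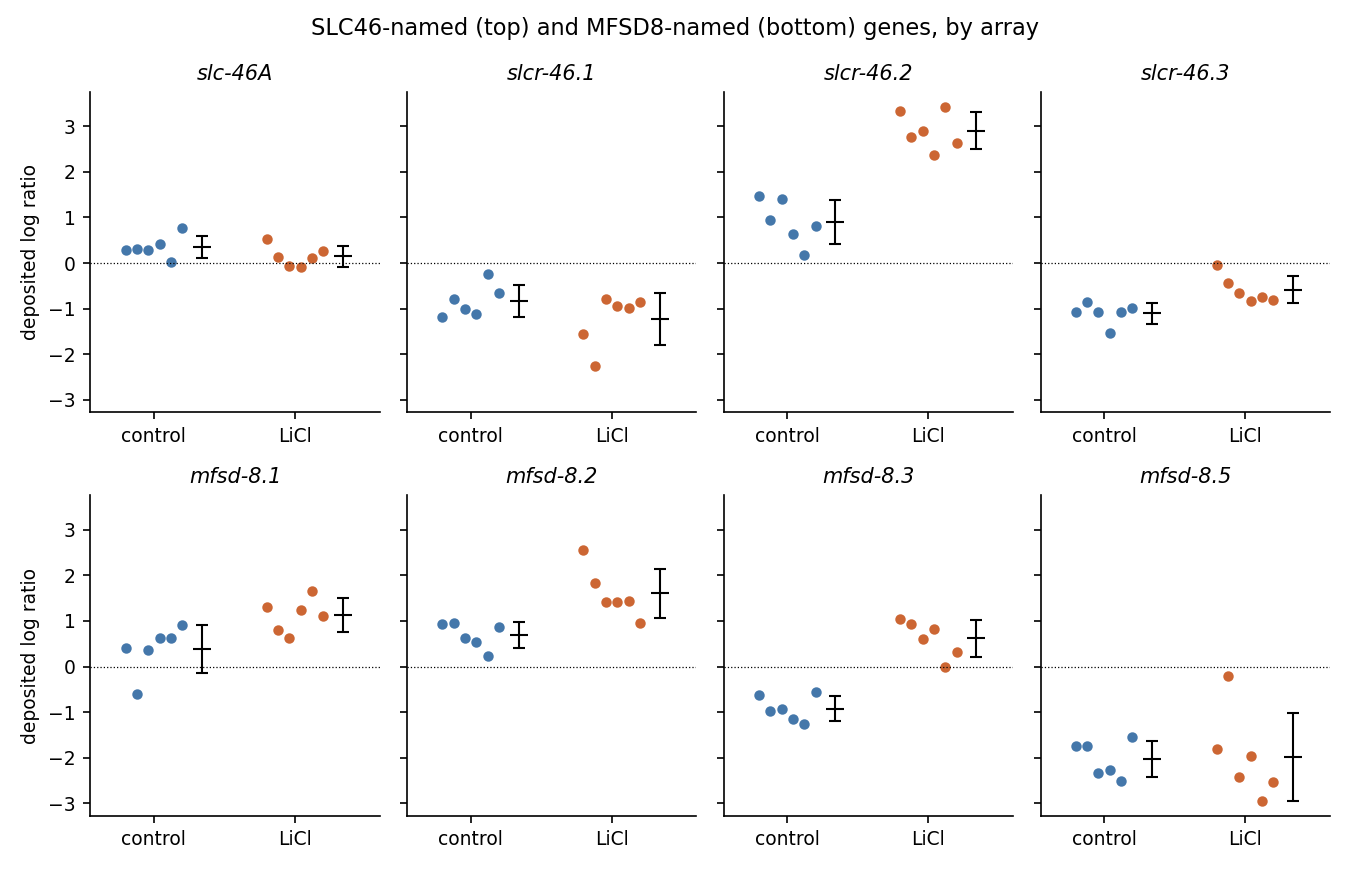
Deposited log ratios (y axis) of the 4 SLC46-named genes (top) and the 4 MFSD8-named genes (bottom) on each control and LiCl array. Each point is 1 array, and the bars are mean and SD (n = 6); slcr-46.2 and mfsd-8.3 lie higher on all LiCl arrays, while slc-46A, slcr-46.1, mfsd-8.1 and mfsd-8.5 overlap between the groups.

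Both SLC30-named zinc carrier genes fell. Human SLC30A5 brings zinc into the secretory pathway, and SLC30A9 is a mitochondrial zinc carrier. slc-30A5 (Y105E8A.3) gave -0.19, -0.03 and 0.44 (lowest, median and highest) in control and -0.92, -0.72 and -0.55 in LiCl. Every LiCl array was below every control array, and the difference was -0.75 ± 0.14 (SE, n = 6 per group, 95% interval -1.06 to -0.44, adjusted p = 0.00702). slc-30A9 (Y71H2AM.9) gave -0.08, 0.09 and 0.28 in control and -0.97, -0.39 and -0.17 in LiCl, again without overlap.

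The fall of slc-30A9 was -0.58 ± 0.16 (SE, adjusted p = 0.0449). It lost the call without any 1 of the arrays except LiCl replicate 4, with adjusted p-values from 0.0530 to 0.0871, whereas slc-30A5 kept its call whichever array was left out. On the 8 arrays of higher weight the difference of slc-30A9 was -0.31 (adjusted p = 0.295). These 8 kept only replicates 3, 4 and 5 of LiCl, and all controls but replicate 5. The responses of the 2 genes differed by -0.18 with an interval of -0.57 to 0.21 (exact permutation test, adjusted p = 0.494).

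The fall of mfsd-12 (F16H11.1) was the largest among the genes that passed. Human MFSD12 is needed for cysteine import into lysosomes and pigment organelles. Control arrays read -0.58, -0.39 and 0.35 and LiCl arrays -2.17, -1.51 and -0.83, so the groups were apart by 0.25. The difference was -1.30 ± 0.25 (SE, n = 6 per group, 95% interval -1.85 to -0.75, adjusted p = 0.00811), and the call held without any single array.

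None of the genes named after MFSD10, MFSD11 and MFSD13 passed, and all 4 of their differences were below 0. mfsd-11 (M153.2) had the largest difference in size after slcr-46.2 and mfsd-8.3, at -1.44 ± 0.70 (SE), but its arrays scattered widely. In LiCl it read -4.30, -0.62 and 0.45, and in control -0.52, 0.36 and 1.85. Replicate 6 of LiCl stood far below the other 5, which lay between -0.96 and 0.45, and without it the difference was -0.78.

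mfsd-10 (F10D7.2) differed by -0.29 (95% interval -0.68 to 0.11) and mfsd-13.1 (F28B3.5) by -0.26 (95% interval -0.77 to 0.25). mfsd-13.2 (C27H5.4) had 3 probes. They differed by -0.37, -0.42 and -0.05, and none passed.

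mfsd-6 (R13A5.9), the remaining mfsd gene, lay just outside the threshold. It read -2.43, -1.68 and -0.76 in control and -1.32, -0.63 and -0.33 in LiCl, with 4 of 6 LiCl arrays above all controls. The difference of 0.90 ± 0.28 (SE, 95% interval 0.31 to 1.50) had an adjusted p of 0.0654. Leaving out control replicate 1 (1.08, adjusted p = 0.0280) or LiCl replicate 5 (1.03, adjusted p = 0.0495) brought it past the threshold.

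**Figure D3:**
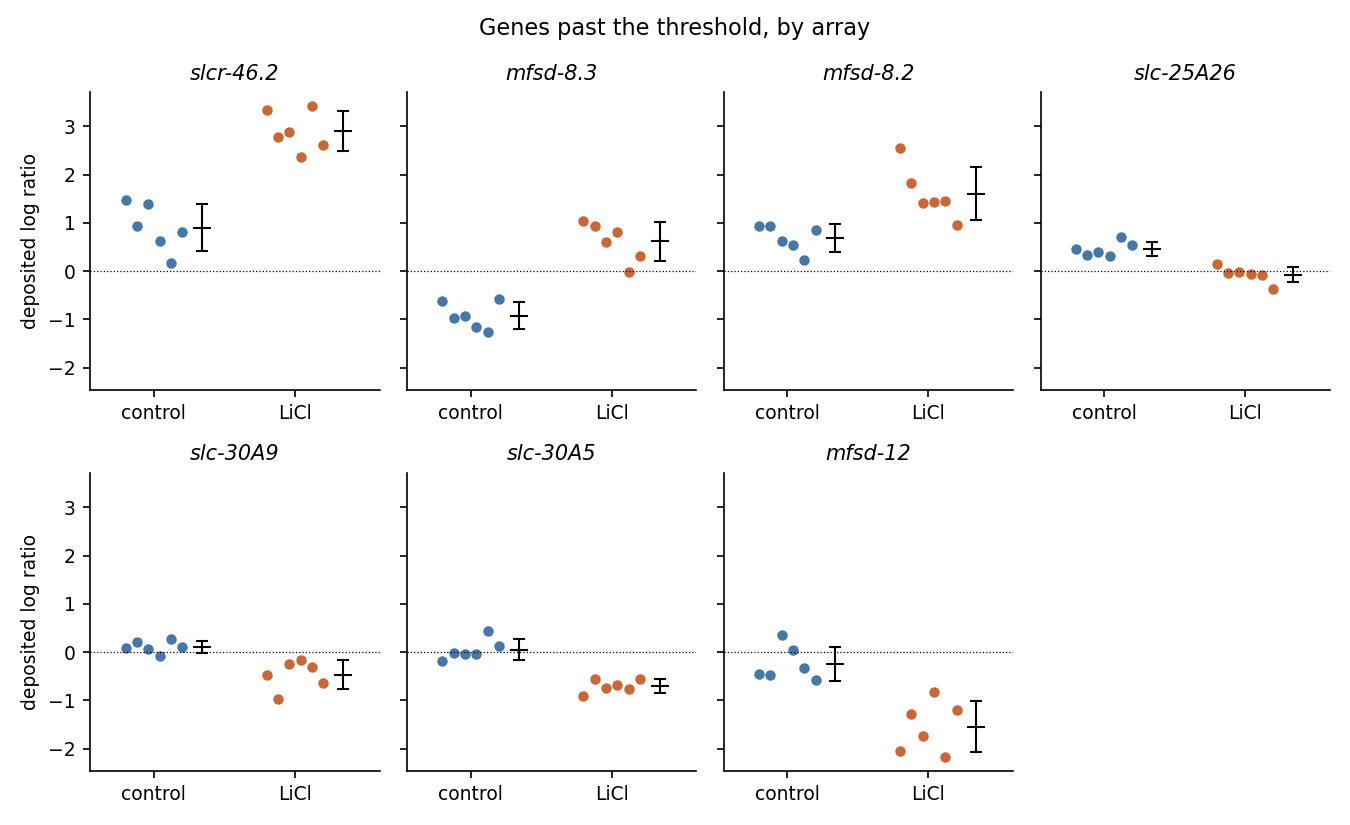
Deposited log ratios (y axis) of the 7 genes past the threshold on each control and LiCl array, ordered from the largest rise to the largest fall. Each point is 1 array and the bars are mean and SD (n = 6); in none of the 7 do the groups overlap, and the gap is smallest in mfsd-8.2, at 0.017.

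The mitochondrial carriers formed the largest family, with 9 genes. slc-25A26 fell, none rose, and 8 did not pass; the median of the 9 differences was -0.23 and 7 were below 0. Human SLC25A26 imports S-adenosylmethionine, the methyl donor, into mitochondria. slc-25A26 (D1046.3) read 0.31, 0.43 and 0.72 in control and -0.36, -0.05 and 0.14 in LiCl, without overlap.

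The fall of slc-25A26 was small, -0.53 ± 0.13 (SE, n = 6 per group, 95% interval -0.82 to -0.24, adjusted p = 0.0302). It kept the call without control replicate 2 or 4 or LiCl replicate 1 or 2, and lost it without any 1 of the other 8 arrays, with adjusted p-values from 0.0528 to 0.0678.

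Next to it came slc-25A21 (R11.1), whose human counterpart carries oxoadipate. It read -0.85, -0.67 and -0.16 in control and -1.26, -1.07 and -0.72 in LiCl, and its difference was -0.43 ± 0.17 (SE, adjusted p = 0.141). slc-25A32 (K01C8.7), named after the carrier of folate and flavin adenine dinucleotide, gave 0.55, 0.86 and 1.03 in control and 0.80, 1.22 and 1.88 in LiCl. Its difference of 0.47 ± 0.19 (SE, adjusted p = 0.159) was the highest of this family, and 5 of 6 LiCl arrays lay above all controls.

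slc-25A18.2 (F55G1.5) had the highest mean control log ratio of the 29 genes. Human SLC25A18 is a mitochondrial glutamate carrier. The arrays gave 0.82, 1.52 and 2.02 in control and 0.12, 1.19 and 1.44 in LiCl, and the difference was -0.37 (95% interval -0.93 to 0.18). The like-named slc-25A18.1 (F20D1.9) lay far lower, at -1.19 ± 0.21 (SD, n = 6) in control, and differed by -0.01 (95% interval -0.43 to 0.41). The responses of the 2 genes differed by 0.36 with an interval of -0.57 to 1.29 (exact permutation test, adjusted p = 0.574).

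The other 4 mitochondrial carriers had differences between -0.28 and 0.09. slc-25A10 (K11G12.5), named after the dicarboxylate carrier, had a log ratio of -2.25 ± 0.28 (SD, n = 6) in control and differed by -0.28 (95% interval -0.66 to 0.11). slc-25A42 (F43G9.3), named after the coenzyme A carrier, differed by -0.23 (95% interval -0.65 to 0.19). slc-25A46 (Y40B1B.8), named after a protein of the outer membrane involved in mitochondrial shape, differed by -0.09 (95% interval -0.38 to 0.20). slc-25A51 (T20D3.5), named after the carrier of nicotinamide adenine dinucleotide, differed by 0.09 (95% interval -0.26 to 0.45).

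The human SLC9B family includes an exchanger known to move lithium itself, and neither SLC9B-named gene passed. slc-9B.1 (F41E7.1) had a control mean of -1.54 ± 0.18 and a LiCl mean of -1.18 ± 0.25 (SD, n = 6 each), with 5 of 6 LiCl arrays above all controls. The difference of 0.36 had an interval of 0.02 to 0.69 and an adjusted p of 0.194. slc-9B.2 (F57G8.5) differed by 0.28 with an interval of -0.36 to 0.93. One control array, replicate 2, read 0.75 while the other 5 lay between -1.09 and -0.18, and without it the difference was 0.54 (adjusted p = 0.161).

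The sodium-coupled monocarboxylate carrier gene slc-5A12 (ZK822.5) had the lowest control log ratio of the 29. It read -3.25, -2.76 and -2.37 in control and -3.51, -2.98 and -2.28 in LiCl, with a difference of -0.19 (95% interval -0.73 to 0.35). slc-36.1 (Y43F4B.7), of the proton-coupled amino acid carriers, had a control mean of 0.18 ± 0.093 and a LiCl mean of 0.048 ± 0.090 (SD, n = 6 each) on the chosen probe. On its second probe the spread was wider, with 0.86 ± 0.38 in control and 0.61 ± 0.51 in LiCl (SD, n = 6 each). Its 2 probes differed between the groups by -0.13 and -0.25, and neither passed. For 18 of the 22 genes that did not pass, the 95% interval of the difference lay within 1 unit of 0. That margin is wider than the differences of mfsd-8.2, slc-30A5, slc-30A9 and slc-25A26, which passed.

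**Figure D4:**
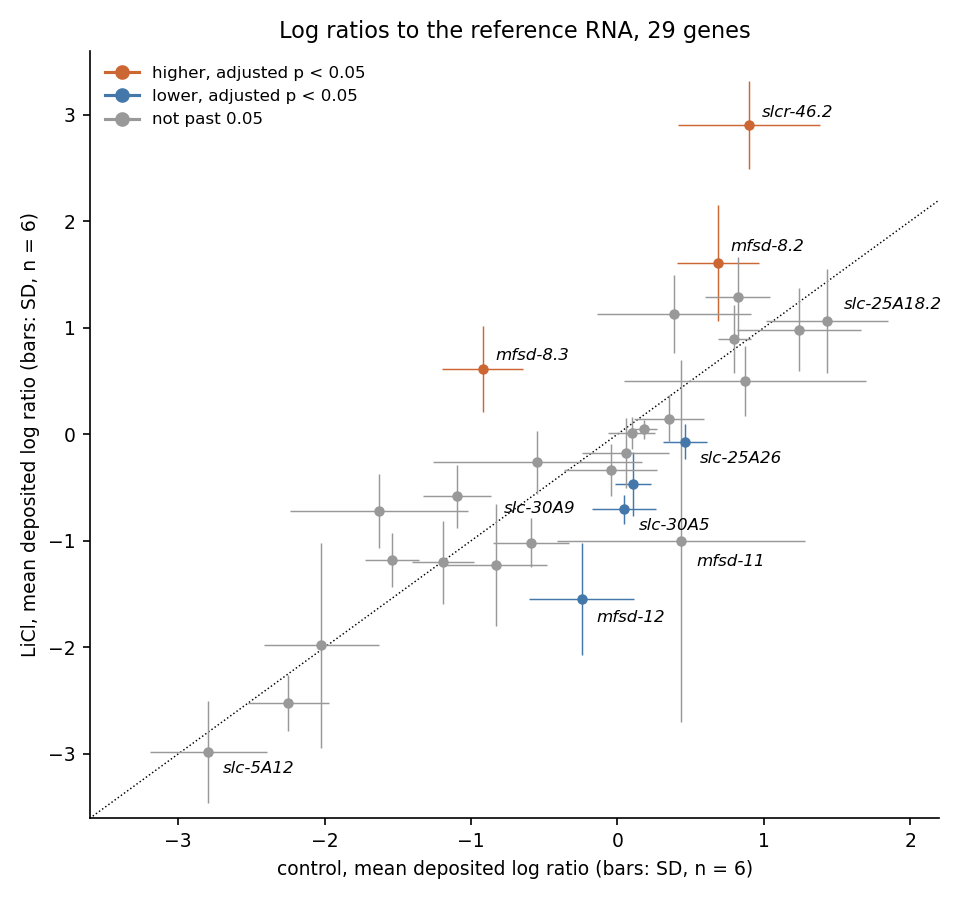
Mean log ratio to the reference RNA in control worms (x axis) and LiCl worms (y axis) for the 29 genes, with SD bars (n = 6 arrays each) and the line of equality. The control means run from -2.79 for slc-5A12 to 1.43 for slc-25A18.2, and slcr-46.2, mfsd-8.3 and mfsd-12 lie far from the line.

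Against the mixed-stage reference, the control means of the 29 genes ran from -2.79 to 1.43 with a median of 0.057, and 16 lay above 0 and 13 below. Genes of 1 family did not always share a log ratio to the reference. The SLC30-named genes lay close together, at 0.047 (slc-30A5) and 0.109 (slc-30A9). The MFSD8-named genes ran from -2.02 (mfsd-8.5) to 0.69 (mfsd-8.2), and the SLC46-named genes from -1.10 (slcr-46.3) to 0.90 (slcr-46.2). The 7 genes that passed had control means between -0.92 and 0.90. These are ratios of each gene to its own reference signal and do not order the genes by abundance.

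In 8 of 29 genes (27.6%) the control and LiCl arrays did not overlap, 4 in each direction. Over all probes 6.61% did not overlap, 3.6% with LiCl higher and 3.0% with LiCl lower. These 8 were the 7 genes that passed and slcr-46.3. No single array was an extreme in all 8, but control replicate 5 was one in all except mfsd-12 and slcr-46.3. LiCl replicate 1 was the highest LiCl array in mfsd-8.3, mfsd-8.2, slc-25A26 and slcr-46.3 and the lowest in slc-30A5. LiCl replicate 5 was the highest in slcr-46.2 and the lowest in mfsd-12 and mfsd-8.3. Control replicate 5 was the highest or lowest control in 17 of the 29 genes. It was the lowest control in slcr-46.2, mfsd-8.3 and mfsd-8.2, which rose. In both slc-30A genes and slc-25A26, which fell, it was the highest, so in each it lay on the side away from LiCl.

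Other genes were collected by name prefixes searched for transporters, and 16 had a named probe. The prefix was the only criterion, so not every gene listed need encode a transporter. They were 9 zipt genes, ptr-25, mpc-1, mpc-2, cup-14, cup-15, cup-16 and micu-3. The names of ABC transporters and ion pumps were searched too, but matched no named probe. ptr-25, of the patched-related family, rose by 1.67 ± 0.17 (SE, adjusted p = 0.000151). zipt-2.4, of the ZIP family that moves zinc into the cytosol, fell by 0.75 on this scale (SE 0.21, adjusted p = 0.0481). The other 14 did not pass. Among them were the other 8 zipt genes, with differences from -0.24 to 0.39. The mitochondrial pyruvate carrier genes mpc-1 and mpc-2 differed by 0.48 (adjusted p = 0.106) and 0.57 (adjusted p = 0.0796). The median of the 16 differences was 0.21.

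Markers of other cells moved in both directions between the same groups. Their lists were chosen with earlier results of these data known, so the number that moved is not a result about these cells. Over all probes 8.0% passed. Of the 7 with a named probe, the germline genes syp-6 (-0.77) and mip-1 (-0.72), the sperm gene spe-57 (-0.88, with values on 5 control arrays) and the pharynx gene pqn-15 (-0.96) fell. The sperm gene spe-51 (2.07) and the pharynx gene phat-8 (1.01) rose. The oocyte gene memi-2 differed by -0.46 and did not pass on the probe used. In control worms syp-6, mip-1 and memi-2 lay above the reference, at 1.38, 0.87 and 1.40. The part of germline, sperm or pharynx content in the transporter differences was not tested.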

How the data were processed

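Per the labels' protocols, RNA of each pellet was amplified in a single round, and 5 µg was labelled. The deposited table, by the authors, holds a score for each of 22370 probes on 12 arrays, a processed log ratio; no source used here gives its log base, normalization, software or spot filter. Of the probes, 8757 had a gene name in the platform annotation, and 8724 of these matched WBcel235 by gene identifier; 33 kept their older name. Values were used as deposited and tested in R 4.3.3 with limma 3.58.1 (two-sided, by lmFit and eBayes, without covariates), after a test on simulated arrays. Standard errors and 95% intervals are the moderated ones. Intervals for pairs of genes use the pooled spread between arrays. Exact permutation tests used scipy 1.17.1, and figures matplotlib 3.10.9.

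The members, lists and tests were chosen with earlier results of these data known. Every member is named. The lowest, median and highest array are given for the 12 smallest p-values and for the highest and lowest control mean, and for mfsd-11, added after its values were seen. Pair tests and the use of 8 arrays were added after seeing the data. Alternatives were other normalizations, variance models, array weights, probe filters, a looser threshold, averaged probes, a replicate block and leaving out arrays. Replicate numbers were not used to pair the samples in the main test. Deviations from the group means correlated above 0.1 in 1 of 6 pairs of like-numbered samples, which cannot exclude a pairing. The labels call the samples biological replicates. The number of arrays limits the precision. No sequences are shown.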

Additional observations from a re-analysis of the deposited data

Results flagged for a closer look

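Each group of 6 arrays was searched, for each of the 29 genes, for an array far from the other 5. Of 58 such searches 4 found one, and about 1 in 20, or 2.9, would be found by chance. mfsd-11 read -4.3 on LiCl replicate 6, against -0.963 on the nearest other LiCl array. mfsd-8.1 read -0.606 on control replicate 2, against 0.365 on the nearest. slc-25A18.2 read 0.118 on LiCl replicate 2, against 1.01. slcr-46.3 read -1.54 on control replicate 4, against -1.07. None of these 4 genes passed the test, and they belong to 4 different arrays.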

How the results depend on the processing

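The counts of genes called higher and lower were 3 and 4. Under 12 alternatives other than leaving out 1 array, the count of lower genes was 2 with the replicate block, 1 with the lower part of all probes by spread left out and 1 on the 8 arrays of higher weight; with array weights it was 3, as slc-30A9 fell short (adjusted p = 0.0518). The number higher was 5 at an adjusted p under 0.10, and 2 both with the spread filter and on the 8 arrays, where mfsd-8.2 fell short (adjusted p = 0.118 and 0.0737). The spread filter left 10 of the 29 genes. It removed slc-30A5, slc-30A9 and slc-25A26, which were therefore not tested again. The fall of mfsd-12 kept its call there (limma, adjusted p = 0.0309). The 8 arrays are fewer by construction and unequal between the groups, without LiCl replicates 1, 2 and 6 and control replicate 5. Leaving out 1 array gave 2 to 3 higher and 2 to 3 lower. Calls over all probes moved too. In the main test 1006 were higher and 783 lower, against 820 and 573 with the block. On the 8 arrays they were 521 and 317, and with the spread filter 432 and 190 of 11185 probes. Without 1 array they ran from 697 to 976 higher and from 479 to 681 lower. There were more with array weights (1091 and 851) and at 0.10 (1554 and 1282). slcr-46.2, mfsd-8.3 and slc-30A5 passed under every alternative that gave them a value, while on the 8 arrays mfsd-12 (adjusted p = 0.0731), slc-25A26 (0.129) and slc-30A9 (0.295, difference -0.31) also lost their calls. With the block slc-25A26 (adjusted p = 0.0800) and slc-30A9 (0.1004) fell short. Whether the replicate numbers pair the samples is not known. Of 29 genes, 25 kept their direction under all 24 alternatives that gave a value. The variance models, probe filters, looser threshold and replicate block leave each difference itself unchanged, so they could not have turned a direction. Averaging probes could do so only for the genes with several probes. The difference of mfsd-8.5 turned with quantile normalization (-0.014), array weights (-0.15) and the 8 arrays (-0.52), and ran from -0.31 to 0.24 with 1 array left out; that of slc-25A18.1 ran from -0.12 to 0.12. On the 8 arrays slc-25A42 (0.086) and slcr-46.1 (0.050) turned. None of these 4 was called, and the cause was not tested. Signal over background was not used here.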

Other observations

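The members were scattered in the genome. In the WBcel235 order of protein-coding genes, 1 pair of members, slcr-46.1 and mfsd-12, lay within 20 genes of each other, with 5 genes between them. Of the genes directly beside a member, 23 had a named probe. K11G12.6, beside slc-25A10, fell by 0.757 (adjusted p = 0.0145), while slc-25A10 did not pass. None of the 6 measured neighbours of slcr-46.2, mfsd-8.3, mfsd-8.2, slc-30A5 and slc-25A26 passed, with differences from -0.69 to 0.12. Over all probes 8.0% passed, so a count among 6 genes says little.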
